A study of Homo sapiens with 9 samples.

Results

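Small leucine-rich proteoglycans are secreted matrix proteins built around a curved stack of leucine-rich repeats, most of them carrying glycosaminoglycan chains. The genes described are LUM, FMOD, PRELP and OMD (lumican, fibromodulin, prolargin and osteomodulin, the class II members), DCN, BGN and ASPN (decorin, biglycan and asporin, class I) and OGN (osteoglycin, class III). They were taken by symbol from the authors' table of read counts, and all 8 were found among its 27730 gene symbols. Total RNA came from HUES9, an established human embryonic stem cell line that stands here as the only line, used at passages 44 to 46 and kept on mitomycin-treated mouse fibroblast feeders. Cells were spun into embryoid bodies, moved to suspension culture and then plated on Matrigel, and the 3 groups were day 13 cells given 10 µM AA147, day 13 cells given 10 µM RP22, and day 1 cells with no agent, with 3 libraries each from separate experiments. The labels call AA147 an ATF6 activator and RP22 its inactive analogue, and ATF6 is a membrane-bound sensor that is cleaved to a transcription factor when proteins misfold in the endoplasmic reticulum. Solvent-only cells were not analysed here.

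These proteins act at the surface of collagen fibrils, where they set fibril diameter and spacing, and several also bind growth factors or their receptors. Decorin and biglycan carry chondroitin or dermatan sulfate chains, and lumican and fibromodulin carry keratan sulfate or unsulfated polylactosamine. Decorin binds TGF-beta and several receptor tyrosine kinases, biglycan is a ligand of Toll-like receptors, and prolargin holds basement membrane to the collagen network. In the embryo they are products of mesenchymal cells such as those of tendon, skin, cartilage and the corneal stroma.

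The genes sit in clusters. In the RefSeq gene order of GRCh38.p14, LUM lies between KERA and DCN on chromosome 12, FMOD neighbours PRELP and PRELP neighbours OPTC on chromosome 1, OGN, OMD, ASPN and ECM2 follow each other on chromosome 9, and BGN lies on chromosome X. OGN, OMD and ASPN overlap CENPP and BGN overlaps HAUS7. Whether reads were counted by strand is not given in the sources used here, so reads from overlapping genes cannot be told apart. Promoter windows of 300 bases from RefSeq (GRCh38.p14) matched 5 of the 8 genes, namely FMOD, PRELP, OGN, ASPN and BGN. The 250 bases before the start site are shown for BGN and PRELP, the members that passed the test between the compounds, and for FMOD, the chromosome 1 neighbour of PRELP. They are written 5′ to 3′ on the gene's strand, and capitals mark CpG dinucleotides. The windows are chrX:153494730-153494979 on the plus strand for BGN, chr1:203475556-203475805 on the plus strand for PRELP and chr1:203351123-203351372 on the minus strand for FMOD.
BGN: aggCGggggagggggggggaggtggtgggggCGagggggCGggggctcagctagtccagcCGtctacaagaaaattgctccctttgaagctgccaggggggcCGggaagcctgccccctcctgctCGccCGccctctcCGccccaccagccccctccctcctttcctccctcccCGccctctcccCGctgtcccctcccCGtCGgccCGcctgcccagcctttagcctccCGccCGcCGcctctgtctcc
PRELP: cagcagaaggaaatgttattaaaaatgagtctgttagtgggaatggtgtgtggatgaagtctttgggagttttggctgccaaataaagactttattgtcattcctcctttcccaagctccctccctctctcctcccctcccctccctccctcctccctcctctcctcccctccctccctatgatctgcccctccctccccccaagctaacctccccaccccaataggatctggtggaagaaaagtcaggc
FMOD: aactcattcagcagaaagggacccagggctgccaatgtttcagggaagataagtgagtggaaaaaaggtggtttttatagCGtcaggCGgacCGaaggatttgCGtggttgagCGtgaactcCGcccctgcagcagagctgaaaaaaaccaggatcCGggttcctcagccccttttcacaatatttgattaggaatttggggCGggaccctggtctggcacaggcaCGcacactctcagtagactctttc

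The BGN window was 71.7% GC over its 300 bases with 19 CpG, against 52.7% GC with 1 CpG at PRELP and 52.3% GC with 10 CpG at FMOD. The median of all 35116 RefSeq promoter windows was 58.7% GC and 14 CpG. The windows of BGN, PRELP and FMOD therefore spanned CpG-rich and CpG-poor sequence. TGACGTG, the core of the UPR element to which ATF6 can bind, was searched on both strands of the 300 bases. These letters occurred in 1.97% of all promoter windows, and in none of the windows of the 5 matched genes.

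Library totals ran from 9223039 to 10118267 reads. The summed level of 5 pluripotency markers was 30.3 to 43.5 CPM (counts scaled to library size) with AA147, 260 to 497 CPM with RP22 and 5059 to 5486 CPM at day 1, and NANOG had no read with AA147. The RP22 libraries were not alike. RP22 replicate 1 differed from the other RP22 libraries by a chi-square of 29.3 and 28.2 per degree of freedom over genes, against 2.45 between replicates 2 and 3. Its mesenchyme and fibroblast markers summed to 15790 CPM, against 4079 and 4530 CPM in replicates 2 and 3. Neural crest and Schwann precursor markers (639 against 302 and 320 CPM) and endothelial markers (179 against 85.3 and 108 CPM) were also higher there. Pluripotency (260 against 456 and 497 CPM), neural (718 against 956 and 922 CPM) and cartilage and bone markers (367 against 442 and 436 CPM) were lower. Results between the compounds are therefore given with and without RP22 replicate 1. The unevenness was largest with RP22 but not limited to it. By the same measure, day 1 replicate 1 lay at 14.5 and 8.87 from replicates 2 and 3, which lay at 3.80 from each other. AA147 replicate 1 lay at 10.4 and 11.0 from replicates 2 and 3, against 5.29 between those. AA147 replicate 1 also held most of that group's FMOD, BGN and OGN reads. Results between the compounds without the libraries numbered 1 in both groups are given too. These libraries were picked partly by the values of the same genes, and without both only 2 libraries a group remain. P-values from such fits describe how results depend on the libraries and are not separate support.

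The first comparison asked how these genes differed at day 13 between the active compound and its analogue. BGN and PRELP were lower with AA147 than with RP22, and in both the groups did not overlap. LUM averaged higher with AA147, and DCN, FMOD and OGN averaged lower, but none of these 4 differences passed the test over all libraries. Of the 8 genes, 6 entered the test by edgeR, 0 were higher and 2 were lower. The number higher was also 0 at an unadjusted p under 0.05 and 0 by DESeq2 and limma-voom. Over all 14293 genes tested, 62.0% passed in either direction, 29.8% higher and 32.2% lower, so the share of members called was no larger than that of genes in general. The split moved with scaling, since 48.1% of calls were upward with TMM scaling, which centres on the bulk of genes, and 18.2% when libraries were scaled by their totals alone. BGN and PRELP kept their calls under that scaling, with log2 fold changes of −3.16 and −2.66 (edgeR). BGN, PRELP, FMOD and OGN met the count minimum only through the RP22 libraries, so the count of members called cannot speak for the set. In bulk RNA, fewer cells of a type and less RNA per cell cannot be told apart.

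BGN, a class I member that carries paired glycosaminoglycan chains, had 13.8, 1.25 and 3.67 CPM in the 3 AA147 libraries, against 52.0, 29.5 and 35.0 CPM in the RP22 libraries. The highest AA147 library lay below the lowest RP22 library. Mean levels were 6.22 ± 6.63 CPM with AA147 and 38.8 ± 11.7 CPM with RP22 (SD, n = 3 each), a 6.57-fold lower level with AA147 (log2 fold change −2.71 ± 0.74 SE, edgeR quasi-likelihood adjusted p = 0.025). Of all genes tested, 32.1% had AA147 libraries that all lay below the RP22 libraries. The call depended on the libraries used. It was lost on leaving out AA147 replicate 3 (adjusted p = 0.082), RP22 replicate 1 (0.076), RP22 replicate 2 (0.053) or RP22 replicate 3 (0.068), with log2 fold changes from −2.42 to −2.87. Leaving out AA147 replicate 1 gave −4.05 with an adjusted p of 0.0019, and without the libraries numbered 1 in both groups it was −3.77 with an adjusted p of 1.6e-07 (edgeR).

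PRELP, a class II member that binds heparan sulfate chains of the basement membrane, was measured at low depth. It had 11, 6 and 5 reads in the AA147 libraries, against 38, 43 and 64 reads in the RP22 libraries. The groups did not overlap, and 32.1% of all genes tested likewise had AA147 libraries all below the RP22 libraries. The mean was 0.968 ± 0.421 CPM with AA147 and 4.24 ± 0.947 CPM with RP22 (SD, n = 3 each), 4.63-fold lower with AA147 (log2 fold change −2.21 ± 0.37 SE, edgeR adjusted p = 0.0013). Of the 6 tested members, PRELP alone kept its call whichever library was left out, with log2 fold changes from −2.62 to −1.96 and adjusted p-values from 0.00058 to 0.0097 (edgeR). PRELP met the count minimum only through the RP22 libraries, which selects for genes higher there, so this stability is not separate support. Reads of the RP22 group were spread over its libraries, with 26.2% of them in replicate 1.

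LUM, the keratan sulfate proteoglycan of the corneal stroma and of many connective tissues, was the most abundant member at day 13. It had 693, 1051 and 1214 CPM in the AA147 libraries, against 916, 283 and 315 CPM in the RP22 libraries. RP22 replicate 1 lay among the AA147 libraries, and the other RP22 libraries lay below all of them. Over all libraries the log2 fold change was 0.87 ± 0.54 SE with a 95% interval from −0.50 to 2.24 (edgeR adjusted p = 0.21). Without RP22 replicate 1, LUM was higher with AA147 (log2 fold change 1.64 ± 0.26 SE, adjusted p = 0.0044), and without the libraries numbered 1 in both groups the log2 fold change was 1.82 with an adjusted p of 8.7e-13 (edgeR).

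DCN, the decorin gene next to LUM on chromosome 12, had 124, 56.1 and 89.2 CPM in the AA147 libraries, against 425, 52.6 and 63.0 CPM in the RP22 libraries. RP22 replicate 1 lay far above the AA147 libraries, and the other RP22 libraries lay among or just below them. The log2 fold change was −1.09 ± 0.97 SE with a 95% interval from −3.59 to 1.42 (edgeR adjusted p = 0.38). Its sign turned without RP22 replicate 1, to 0.56 with an adjusted p of 0.28, and without the libraries numbered 1 in both groups, to 0.24 with an adjusted p of 0.56 (edgeR). RP22 replicate 1 held 77.4% of the group's DCN reads.

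FMOD, which binds type I collagen and modulates its cross-linking, varied widely among replicates. It had 623, 6 and 1 reads in the AA147 libraries, against 4082, 355 and 595 reads in the RP22 libraries. AA147 replicate 1 thus lay above RP22 replicates 2 and 3, and the other AA147 libraries lay far below every RP22 library. Replicate 1 held 98.9% of the reads with AA147 and 81.1% of those with RP22. The log2 fold change was −2.54 ± 1.88 SE with a 95% interval from −7.43 to 2.34 (edgeR adjusted p = 0.29). Leaving out AA147 replicate 1 gave −8.42 with an adjusted p of 0.046, leaving out RP22 replicate 1 gave −0.63 with an adjusted p of 0.80, and leaving out both gave −6.52 with an adjusted p of 0.00072 (edgeR).

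OGN, a class III member expressed in bone, cornea and vessel walls, had 48, 2 and 0 reads in the AA147 libraries, against 123, 23 and 26 reads in the RP22 libraries. It shared with FMOD a high AA147 replicate 1 that overlapped the RP22 group, while the remaining AA147 libraries were near 0. The log2 fold change was −1.31 ± 1.43 SE with a 95% interval from −4.91 to 2.28 (edgeR adjusted p = 0.46). Without AA147 replicate 1 it was −5.25 with an adjusted p of 0.041, without RP22 replicate 1 it was −0.02 with an adjusted p of 0.99, and without both it was −3.97 with an adjusted p of 3.9e-05 (edgeR).

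ASPN and OMD, the asporin and osteomodulin genes next to OGN, were at or near 0 and did not meet the count minimum. ASPN had 1 read in the AA147 group, against 7 reads in the RP22 group, a ratio of 0.213 with a 95% counting interval from 0.0047 to 1.66, and 1 read against 1 read without RP22 replicate 1. OMD had 0 reads with AA147, 0 reads with RP22 and 1 read at day 1. At this depth a difference between the compounds was not detectable for either gene.

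**Figure D1:**
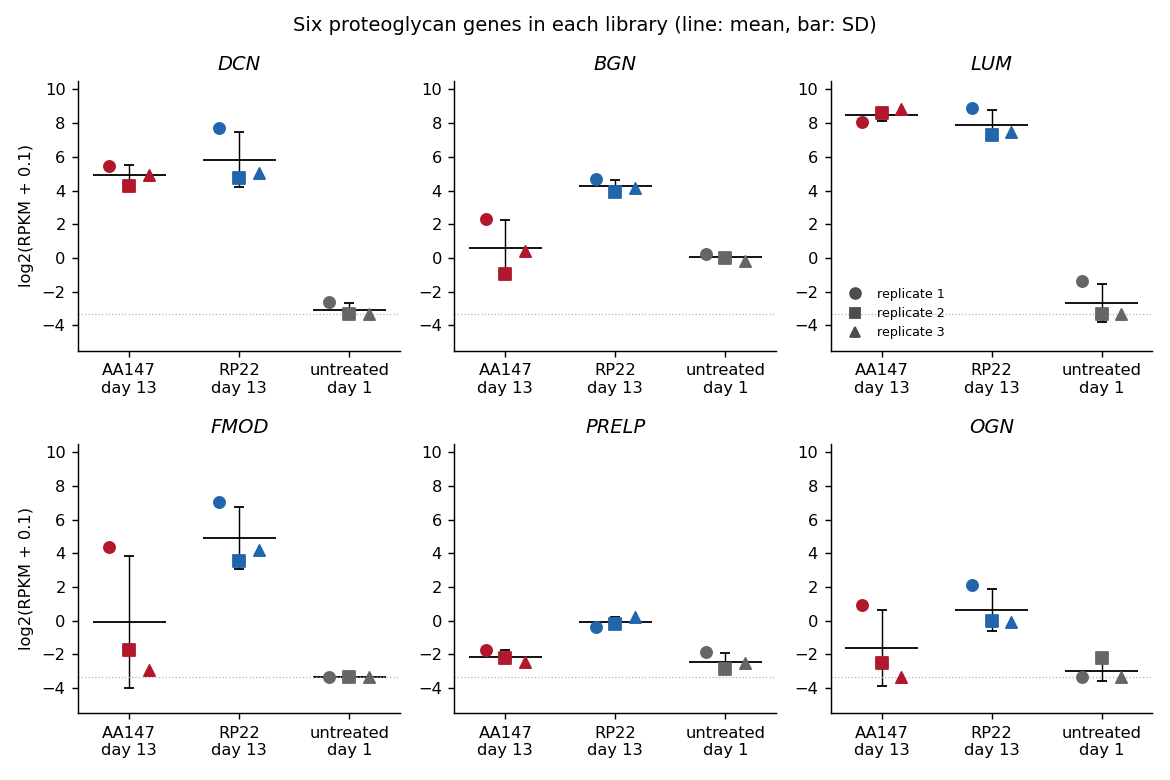
Level of the 6 tested genes in each of the 9 libraries as log2(RPKM + 0.1), where RPKM is reads scaled by the gene's length and the library's size, with the mean (line) and SD (bar) of each group and the value of 0 RPKM dotted. AA147 replicate 1 stood above the other AA147 libraries for DCN, BGN, FMOD, PRELP and OGN, and RP22 replicate 1 stood above the other RP22 libraries for LUM, DCN, FMOD, BGN and OGN.

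**Figure D2:**
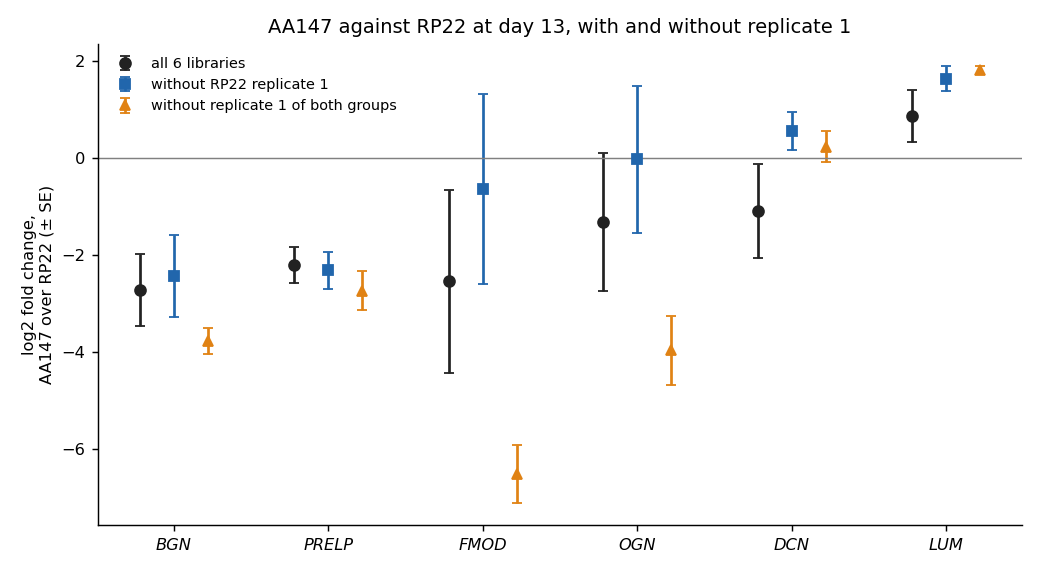
The log2 fold change of AA147 over RP22 from edgeR, with SE, over all 6 libraries, without RP22 replicate 1, and without the libraries numbered 1 in both groups. PRELP stayed between −2.74 and −2.21 in the 3 fits, whereas DCN moved from −1.09 to 0.56 and FMOD reached −6.52.

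Levels between genes were compared per length, in the authors' RPKM. With AA147 the order of medians was LUM at 389 RPKM (range 269 to 451), DCN at 30.7 RPKM (19.2 to 44.5), BGN at 1.24 RPKM (0.423 to 4.89) and FMOD at 0.2 RPKM (0.031 to 20.6), then PRELP and OGN. The ranges of LUM and DCN did not overlap, and neither did those of DCN and BGN, while from BGN down each gene overlapped the next. With RP22 the order was LUM at 177 RPKM (158 to 484), DCN at 32.7 RPKM (27.2 to 208), FMOD at 18.1 RPKM (11.7 to 130) and BGN at 18.0 RPKM (15.1 to 25.2), each overlapping the next, and BGN lay above OGN without overlap. At day 1 BGN led with 0.912 RPKM (0.792 to 1.09), above PRELP at 0.074 RPKM (0.036 to 0.173), and the other members had a median of 0.

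LUM made up most of the summed RPKM of the 8 genes at day 13. Its share was 78.9%, 95.1% and 93.4% in the AA147 libraries, against 56.8%, 74.0% and 71.5% in the RP22 libraries, and the groups did not overlap. BGN held 1.44%, 0.103% and 0.257% of the sum with AA147, against 2.96%, 7.06% and 7.26% with RP22. The exact two-sided permutation test cannot go below p = 0.1 with 3 libraries a group, so no test of these shares was made. The sum itself was 341, 409 and 483 RPKM with AA147, against 852, 214 and 248 RPKM with RP22, and 1.61, 1.10 and 0.866 RPKM at day 1. RP22 replicate 1 had the highest sum of all libraries, and the AA147 libraries lay between it and the other RP22 libraries.

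**Figure D3:**
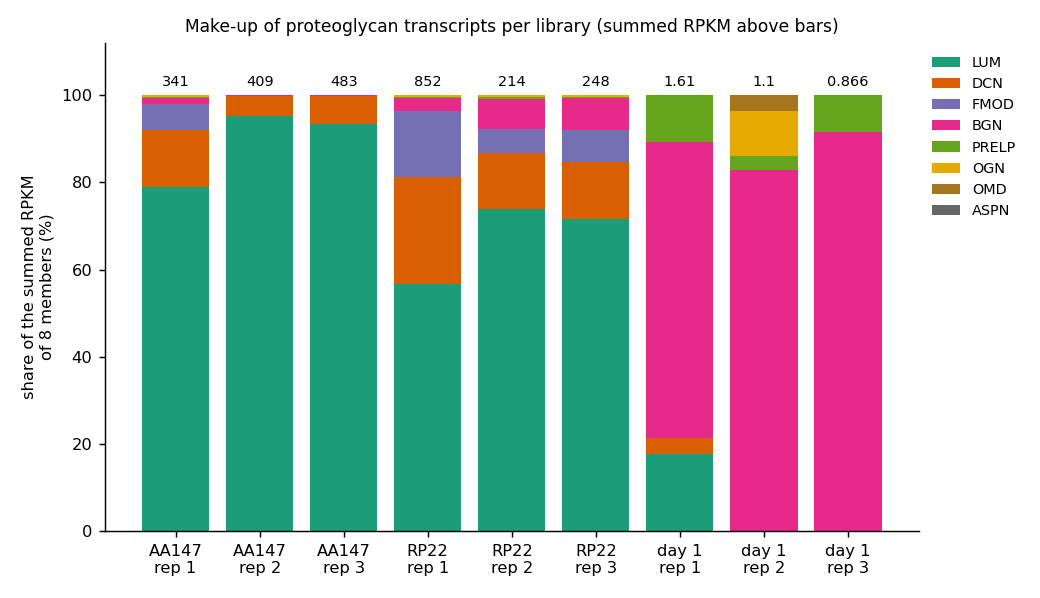
Share of the summed RPKM of the 8 genes taken by each, in percent, with the sum in RPKM above each bar. LUM took 78.9 to 95.1% in AA147 libraries and 56.8 to 74.0% in RP22 libraries, and BGN took 67.7 to 91.5% at day 1, where the sum was at most 1.61 RPKM.

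The comparison of RP22 with day 1 followed the genes through differentiation with the inactive analogue. LUM, DCN, FMOD, BGN, OGN and PRELP were all higher at day 13 with RP22, and in each the groups did not overlap. Over all 14559 genes tested, 71.9% passed in either direction, 36.6% higher and 35.2% lower, and 38.5% had RP22 libraries that all lay above the day 1 libraries. Of the 6 genes, 5 met the count minimum only through the RP22 libraries, which selects for genes higher there, so their count cannot speak for the set. BGN alone met it in both groups. BGN had 561, 326 and 421 reads with RP22, against 25, 20 and 17 reads at day 1. Its log2 fold change was 4.28 ± 0.27 SE (edgeR adjusted p = 6.5e-06), and it passed in all alternatives, with values from 3.38 to 4.45.

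LUM had 16804 reads over the RP22 group, against 6 reads at day 1, all in day 1 replicate 1. The ratio of levels was 2565 with a 95% counting interval from 1178 to 6991 (edgeR adjusted p = 0.00018), and without day 1 replicate 1 the level was at least 3354-fold higher with RP22. The ratio was 1551 without RP22 replicate 1. DCN had 5920 reads with RP22, against 1 read at day 1, a ratio of 5423 with a counting interval from 973 to 214214. It was 1799 without RP22 replicate 1 and at least 1182 without day 1 replicate 1. Its adjusted p was 0.0023 by edgeR, 0.052 without day 1 replicate 1, and 0.088 by limma-voom. FMOD had 5032 reads with RP22, against 0 reads at day 1, at least 1536-fold higher, and at least 426-fold higher without RP22 replicate 1 or 1004.5-fold without day 1 replicate 1. The FMOD call (edgeR adjusted p = 0.022) was lost with all 9 libraries in one fit (0.052), with no count filter (0.084), without day 1 replicate 1 (0.070) and by limma-voom (0.11). Bounds are against 3 reads over the day 1 group and take the reads of the other group as exact. Counting intervals cover counting error only. Neither covers the spread between libraries.

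OGN had 172 reads with RP22, against 3 reads at day 1, a ratio of 52.5 with a counting interval from 17.7 to 257 (edgeR adjusted p = 0.0066). The ratio was 21.9 (7.08 to 110) without RP22 replicate 1 and 34.3 without day 1 replicate 1. PRELP had 145 reads with RP22, against 10, 2 and 4 reads in the day 1 libraries, with a log2 fold change of 3.03 ± 0.46 SE (edgeR adjusted p = 0.0005). ASPN had 7 reads with RP22, 6 of them in replicate 1, against 0 reads at day 1. It did not meet the count minimum, and with no count minimum its edgeR adjusted p was 0.12. With so few reads no bound was given. The feeder layer was of mouse cells, whose reads the table does not set apart, and their part in the day 1 levels was not tested.

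AA147 cells were set against the same day 1 libraries, so this comparison shares its controls with the one above. LUM and DCN were higher with AA147 than at day 1, BGN did not pass, and FMOD, OGN, PRELP, OMD and ASPN did not meet the count minimum. Over all 13761 genes tested, 79.1% passed in either direction, 38.7% higher and 40.4% lower, and the share of calls that were upward was 48.9% with TMM and 34.3% with library totals alone. LUM and DCN met the minimum only through the AA147 libraries. LUM had 22470 reads with AA147, against 6 reads at day 1, a ratio of 5106 with a counting interval from 2345 to 13915 (edgeR adjusted p = 9.7e-07). DCN had 2057 reads with AA147, against 1 read at day 1, a ratio of 2804 with a counting interval from 503 to 110823 (edgeR adjusted p = 7.9e-06), and at least 611 without day 1 replicate 1.

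BGN had 105, 9 and 29 reads with AA147, against 25, 20 and 17 reads at day 1, so 1 AA147 library lay below the day 1 group and the others above it. Its log2 fold change was 1.65 ± 0.80 SE with a 95% interval from −0.26 to 3.55 (edgeR adjusted p = 0.096). It passed without AA147 replicate 2 (2.14, adjusted p = 0.0081) and by DESeq2 (1.65, adjusted p = 0.022), and fell to 0.33 with an adjusted p of 0.53 without AA147 replicate 1, the source of 73.4% of that group's reads. PRELP had 22 reads with AA147, against 16 reads at day 1, with an edgeR adjusted p of 0.24 when no count minimum was set. FMOD had 630 reads with AA147, against 0 reads at day 1, at least 286-fold higher (187-fold without day 1 replicate 1). Only 7 of these reads lay outside AA147 replicate 1, and without that library the bound fell to 4.79-fold. With no count minimum the FMOD edgeR adjusted p was 0.27, and it was 0.13 with all 9 libraries in one fit. OGN had 50 reads with AA147, against 3 reads at day 1, a ratio of 22.7 with a counting interval from 7.34 to 114, which was 14.9 without day 1 replicate 1. Of the AA147 reads 96.0% lay in replicate 1, without which 2 reads stood against 3 and no ratio was given. With no count minimum the OGN edgeR adjusted p was 0.14, and it was 0.089 with all 9 libraries in one fit.

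The genes nearest in pattern were found by the root mean square difference of log2 CPM, each gene centred on its own mean over the 9 libraries, among 14278 genes with a mean of at least 1 CPM. The nearest to LUM were NR2F2, a nuclear receptor (0.93), and IGF2, an insulin-like growth factor (0.95), while those nearest to DCN were RGS4 (0.52) and IGF2 (0.70). FMOD was nearest to PITX1, a homeobox factor (0.87), and HGF, the ligand of MET (1.08). PITX1 had 227, 0 and 1 reads with AA147, against 1690, 341 and 420 reads with RP22, the same uneven replicates as FMOD. BGN was nearest to ACVRL1, a receptor of the TGF-beta family (0.27), and FOXF1, a forkhead factor (0.31). OGN was nearest to AKR1B15 (0.56) and SLC39A2 (0.59), and PRELP to KLK7, a serine protease (0.20), and SSPO (0.32). Between members the difference was 1.40 for LUM and DCN and 0.96 for BGN and PRELP, but 4.47 for LUM and BGN. Such differences grow with a gene's range over the libraries, so pairs cannot be compared by size alone. A prior count of 2 was added before logs were taken, which draws values near 0 together. In the day 1 libraries ACVRL1 and AKR1B15 had 0 reads and FOXF1 had 1 read each, against 25, 20 and 17 reads of BGN. DCN ranked 19 among the genes nearest to LUM, and LUM ranked 43 for DCN. PRELP ranked 206 for BGN, and BGN ranked 1099 for PRELP.

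Other members of the family stayed low in all groups, apart from TSKU (tsukushi, an inhibitor of BMP and Wnt signals). TSKU had 685, 549 and 670 reads with AA147, against 587, 482 and 583 reads with RP22, and its log2 fold change was 0.68 ± 0.11 SE (edgeR adjusted p = 0.00091), which became 0.23 and was lost when libraries were scaled by their totals alone (adjusted p = 0.070). KERA, keratocan and the other neighbour of LUM, had 3, 8 and 14 reads with AA147, against 2, 0 and 1 reads with RP22 and 0 reads at day 1. ECM2, beside ASPN, had 1 read with AA147, against 21 reads with RP22 and 2 reads at day 1. OPTC, opticin and the neighbour of PRELP, ran the other way in time, with 3 reads with AA147 and 10 reads with RP22, against 101 reads at day 1. OPTC was lower than at day 1 with AA147 (log2 fold change −4.48 ± 0.60 SE, edgeR adjusted p = 8.3e-05) and with RP22 (−3.41 ± 0.61 SE, adjusted p = 0.0011). It met the count minimum only through the day 1 libraries, which selects for genes higher there. CHAD had 36 reads with AA147, against 94 reads with RP22 and 24 reads at day 1 (AA147 against RP22, edgeR adjusted p = 0.072). CHADL had 42, 78 and 108 reads, PODNL1 14, 23 and 27, PODN 1, 13 and 17, NYX 0, 10 and 19 and EPYC 0, 2 and 0 reads in the AA147, RP22 and day 1 groups.

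The enzymes that build chondroitin and dermatan sulfate, the chains of decorin and biglycan, were mostly higher with AA147 than with RP22. Of 22 listed genes 21 were tested, 16 were higher and 0 were lower by edgeR (0 lower also at an unadjusted p under 0.05 and by DESeq2), with a median log2 fold change of 0.55 against −0.03 for all genes tested, of which 29.8% were higher and 32.2% lower. The split rested on the scaling of the libraries. With library totals alone the median of all genes moved to −0.49, and 9 of the 21 were higher and 3 lower, with a median of 0.09. Over all genes that scaling gave 1897 higher and 8527 lower of 14293. CHPF, a polymerizing factor of chondroitin, averaged 470 ± 7.27 CPM with AA147 and 132 ± 26.0 CPM with RP22 (SD, n = 3 each), with a log2 fold change of 1.74 ± 0.13 SE (edgeR adjusted p = 3.2e-05). CHPF2 was higher by a log2 fold change of 1.19 ± 0.11 SE (edgeR adjusted p = 6.8e-05). FAM20B, the xylose kinase of the linker region, was higher by 0.32 ± 0.07 SE (adjusted p = 0.0039), but its sign turned to −0.13 with library totals alone (edgeR adjusted p = 0.099). CHSY1, a chondroitin synthase, averaged 89.1 ± 20.2 CPM with AA147 and 157 ± 90.6 CPM with RP22 (log2 fold change −0.91 ± 0.44 SE, edgeR adjusted p = 0.13). It passed as lower with library totals alone (−1.34, adjusted p = 0.033) and without the libraries numbered 1 in both groups (−0.53, adjusted p = 6.8e-06).

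Enzymes of keratan sulfate, the chain of lumican and fibromodulin, were divided. Of 7 genes tested, 3 were higher and 2 lower with AA147 than with RP22, with a median log2 fold change of −0.13, against 29.8% higher and 32.2% lower over all genes. With library totals alone 3 were higher and 4 lower. The galactosyltransferases B4GALT1 (log2 fold change 1.33 ± 0.09 SE, adjusted p = 1.8e-05) and B4GALT4 (1.05 ± 0.09 SE, adjusted p = 6.5e-05) were higher with AA147. The chain-extending B3GNT7 was lower (−0.69 ± 0.24 SE, edgeR adjusted p = 0.040), a call lost when some single libraries were left out, with adjusted p-values up to 0.14. B3GNT2 had a log2 fold change of −0.13 ± 0.12 SE (edgeR adjusted p = 0.40), and −0.58 with an adjusted p of 0.0039 when scaled by library totals alone. Against day 1, RP22 cells had 3 of the 7 genes higher and 4 lower, where 36.6% and 35.2% of all genes were. AA147 cells had 3 higher and 3 lower, where 38.7% and 40.4% of all genes were.

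The fibril collagens on which these proteoglycans sit were higher with AA147 for 4 of 6 genes and lower for 1, with a median log2 fold change of 1.69. Over all genes 29.8% were higher and 32.2% lower, with a median of −0.03. COL1A1 averaged 13649 ± 2801 CPM with AA147 and 3272 ± 2048 CPM with RP22 (SD, n = 3 each), with a log2 fold change of 1.97 ± 0.46 SE (edgeR adjusted p = 0.012). COL1A2 (1.77 ± 0.40 SE, adjusted p = 0.0098) and COL5A1 (2.11 ± 0.32 SE, adjusted p = 0.0016) were also higher. COL3A1 had a log2 fold change of 1.61 ± 0.68 SE (edgeR adjusted p = 0.091), and 2.76 with an adjusted p of 0.00093 without the libraries numbered 1 in both groups. COL2A1, the collagen of cartilage, was lower with AA147 (−1.69 ± 0.19 SE, adjusted p = 0.00035, edgeR) and was singled out after its values were seen. All 6 collagens were higher than at day 1 with either compound, against 36.6% of all genes with RP22 and 38.7% with AA147.

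Of 10 growth factors and receptors that these proteoglycans bind, 7 were higher with AA147 than with RP22 and 1 was lower, with a median log2 fold change of 1.06, against 29.8% higher and 32.2% lower over all genes. TGFB2, a ligand that decorin binds, averaged 1052 ± 90.9 CPM with AA147 and 126 ± 12.6 CPM with RP22 (SD, n = 3 each), with a log2 fold change of 2.97 ± 0.11 SE (edgeR adjusted p = 2.1e-06). The decorin receptors MET (1.61 ± 0.10 SE, adjusted p = 1.3e-05) and IGF1R (1.27 ± 0.11 SE, adjusted p = 4.8e-05) and the endocytic receptor LRP1 (1.13 ± 0.12 SE, adjusted p = 0.00014) were higher as well. KDR, the endothelial receptor VEGFR2, was lower (−3.47 ± 0.64 SE, edgeR adjusted p = 0.0061) and was singled out after its values were seen. TLR2 and TLR4, receptors of biglycan, did not pass (log2 fold changes 0.00 ± 0.41 SE and −0.51 ± 0.54 SE, edgeR adjusted p = 1.0 and 0.43).

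**Figure D4:**
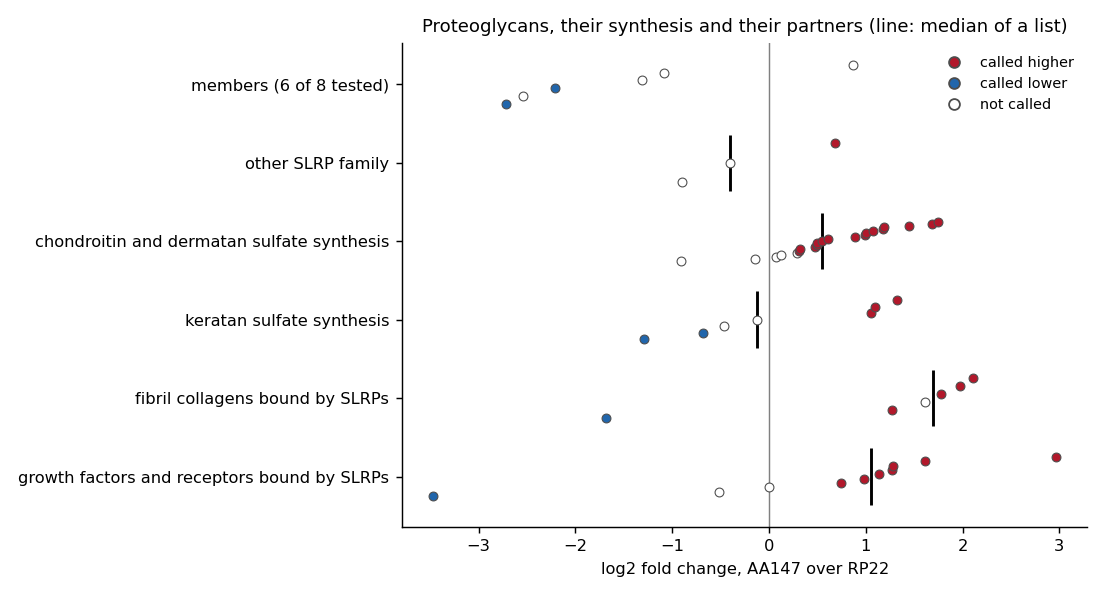
The log2 fold change of AA147 over RP22 for each tested gene of the proteoglycan set and of 5 lists of related genes (points, coloured by the edgeR call), with the median of each list (line). Of the tested members, BGN and PRELP were called lower, and both met the count minimum only through the RP22 libraries. Called higher were 16 of 21 chondroitin and dermatan sulfate enzymes, 4 of 6 collagens and 7 of 10 growth factors and receptors. The count of enzymes fell to 9 with library totals alone. Over all genes tested 29.8% were called higher and 32.2% lower.

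Markers of several cell types differed between the groups along with these genes. The 9 mesenchyme and fibroblast markers all had reads in every group and summed to 22317 to 29707 CPM with AA147, 4079 to 15790 CPM with RP22 and 243 to 262 CPM at day 1. COL1A1 and COL3A1 made up most of these sums at day 13. The other 7 markers of the list summed to 503, 276 and 261 CPM in the AA147 libraries, against 2046, 307 and 387 CPM in the RP22 libraries, and 59.6 to 83.7 CPM at day 1. Of these sums POSTN alone made up 272, 97.5 and 77.3 CPM with AA147, and 1695, 138 and 202 CPM with RP22. PDGFRA and TWIST1, of mesenchymal progenitors, were lower with AA147 than with RP22 (log2 fold changes −3.61 ± 0.63 SE and −1.59 ± 0.40 SE, edgeR adjusted p = 0.0050 and 0.010), whereas PDGFRB was higher (0.73 ± 0.21 SE, adjusted p = 0.022). The 5 smooth muscle and pericyte markers summed to 3071 to 3498 CPM with AA147, 348 to 456 CPM with RP22 and 96.0 to 132 CPM at day 1. TAGLN, ACTA2 and CNN1 carried this sum. MYH11 averaged 2.93 CPM with AA147 and 1.93 CPM with RP22, and DES averaged 5.92 CPM with AA147 and 5.89 CPM with RP22 (edgeR adjusted p = 0.25 and 0.94). The 7 cartilage and bone markers summed to 173 to 216 CPM with AA147, 367 to 442 CPM with RP22 and 15.9 to 18.1 CPM at day 1, with IBSP at 0 in all groups. COL2A1 and ACAN carried the lower sum with AA147, while RUNX2 was higher (log2 fold change 2.01 ± 0.21 SE, edgeR adjusted p = 0.00014) and SOX9 did not pass (0.02 ± 0.12 SE, adjusted p = 0.89). Markers of endothelium summed to 5.54 to 22.3 CPM with AA147, with PECAM1 at 0, against 85.3 to 179 CPM with RP22. Neural crest and Schwann precursor markers summed to 28.0 to 45.5 CPM with AA147, with FOXD3 at 0, against 302 to 639 CPM with RP22. Neural markers summed to 422 to 470 CPM with AA147, against 718 to 956 CPM with RP22, and TUBB3 made up 440 CPM of the mean with AA147 and 322 CPM with RP22. DCX, STMN2, PAX6 and SOX1 were lower with AA147, with log2 fold changes from −7.53 to −5.38 and edgeR adjusted p-values up to 0.011. DCX had 12, 12 and 3 reads and SOX1 had 2, 1 and 0 reads in the AA147 libraries. Both met the count minimum only through the RP22 libraries, and the SOX1 fold change rests on counts near 0. Epithelial markers summed to 6643 to 6971 CPM with AA147, against 2515 to 2645 CPM with RP22. The part of these cell types in the levels of the proteoglycan genes was not tested.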

How the data were processed

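RNA-seq libraries of HUES9 cells, 3 in each of 3 groups, were described by the labels as independent experiments. Expected counts (estimated reads of each gene, unscaled) and RPKM were deposited by the authors for each library. Per the submitters' processing notes the build was GRCh37.p13. The aligner and the counting program were not given in the sources used here. The count table's lowest value, 0.05, filled 41.4% of its cells and was read as 0 (0.002 in the RPKM table). A further 0.914% of cells were fractional, and counts were rounded to whole numbers. The 42 symbols on 2 rows were summed, and 23952 of 27730 symbols matched RefSeq names. No gene coordinates are given, since the RefSeq tables are of another build, and the promoter windows are in their own build.

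Counts were tested in R 4.3.3 with edgeR 4.0.16 (TMM, filterByExpr with a minimum count of 10, robust quasi-likelihood F test), fitting each comparison to the 6 libraries of its groups without covariates. P-values were adjusted by Benjamini-Hochberg over all genes tested, and called under 0.05. Biological coefficients of variation were 15.4% for AA147 against RP22, 15.6% for RP22 against day 1 and 12.3% for AA147 against day 1. SE is the log2 fold change divided by the square root of F, and 95% intervals use the test's own degrees of freedom. CPM values were TMM-scaled over all 9 libraries. Alternatives were DESeq2 1.42.0, limma-voom and limma on log2(RPKM + 0.1 or 1) with limma 3.58.1, other scalings, no filter, a joint fit of the 9 libraries, a replicate block and leaving out libraries. The procedure was tested on simulated data.

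All 8 members were named. From each list the up to 4 genes of highest mean CPM were named, with every detected gene of the remaining family and the 2 genes nearest each member in pattern. COL2A1, KDR, TLR2, TLR4 and the single cell type markers fall outside this rule and were named after their values were seen. The members and lists were chosen with earlier results of these data known.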

Additional observations from a re-analysis of the deposited data

How the results depend on the processing

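Between AA147 and RP22, 2 members were called (0 higher, 2 lower), where 62.0% of all genes tested passed. Leaving out single libraries gave 1 to 4 called, 0 to 1 higher and 1 to 4 lower. Without the libraries numbered 1 in both groups, 5 were called (1 higher, 4 lower). Those libraries were picked partly by the members' own values. Of the tested members 4 met the count minimum only through RP22, so these counts cannot speak for the set. The DCN log2 fold change ran from −1.51 to 0.56 over left-out libraries, turning sign without RP22 replicate 1, and was 0.24 without replicate 1 of both groups, and the cause was not tested. Counts of members called stayed within 4 to 6 for RP22 against day 1 and 2 to 3 for AA147 against day 1, and counts over all genes within 7523 to 11287, 9653 to 11523 and 10347 to 12205 in the 3 comparisons. Of the chondroitin and dermatan sulfate enzymes, 16 were higher with AA147 than with RP22, and 9 with library totals alone, where 3 were lower against 0. Of the keratan sulfate enzymes 2 were lower, and 4 with library totals alone or 1 on leaving out some libraries. Counts over the remaining proteoglycan family moved by at most 2 genes. Samples sharing a replicate number deviated together in AA147 and RP22 with r of 0.214, 0.165 and 0.0746. AA147 replicate 1 correlated at −0.223 and −0.121 with RP22 replicates 2 and 3. AA147 replicate 2 correlated at −0.157 and 0.0888 with RP22 replicates 1 and 3. AA147 replicate 3, however, correlated better with RP22 replicate 2 (0.137) than with its own number. Whether the numbers pair the libraries was not settled by these values. A replicate block gave 3 members called lower between the compounds, with FMOD at −3.42 (edgeR adjusted p = 0.035). Depth limits ASPN, OMD, OGN and PRELP most, and with 3 libraries a group 1 library can decide a call.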
